A study of Mus musculus with 3 samples.

Results

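Abundant lincRNA genes of chromatin-bound RNA were taken as the genes with at least 1 transcript annotated as lincRNA (long intergenic noncoding RNA) and none annotated as protein-coding, and with a mean expected count of at least 200 over the libraries. Of 6053 lincRNA genes, 22 were left out by name (Malat1, Neat1, Gas5, the Snhg and Mir host genes, and the Gm26917 and Gm42418 genes of the ribosomal DNA locus), and 89 of the remaining 6031 reached the minimum. The members were selected on their measured counts, so their abundance is a description and was not tested. The last genes inside the minimum were Gm26899, Gm26606 and Gm26819, at mean counts of 210.3, 205.0 and 200.6. The first outside it were 9430098F02Rik, Gm26860 and Gm26804, at 195.7, 189.9 and 181.7.

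The RNA came from bone marrow-derived macrophages of C57BL/6J mice, phagocytes grown from marrow, that had been treated with Lipid A, the membrane anchor of bacterial lipopolysaccharide, recognised by the receptor TLR4. All 3 libraries belong to 1 group, stimulated with 100 ng/ml for 25 min, and no unstimulated cells were analysed here, so nothing below shows induction. RNA was taken from the chromatin fraction and depleted of ribosomal RNA, and the labelled starting amounts were 1000 ng for replicate 1, 250 ng for replicate 2 and 500 ng for replicate 3. The labels collect neither sex nor age. They give the 3 biological replicates the same donor record, so these need not be separate animals. Each amount is 1 library, so p-values weigh a slope against scatter about fitted lines, and not against replicates of an amount. The fit shares information on this scatter between genes, so a p-value or SE does not reflect a gene's own scatter alone.

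LincRNAs are transcribed and capped like messenger RNAs but encode no known protein, and many stay in the nucleus at or near the place where they are made. Some act there on chromosomes, as Xist does when it coats and silences an X chromosome, some carry microRNAs in their introns or exons, and many have no known role. Chromatin-associated RNA is rich in transcripts that are still being made, so unspliced and short-lived lincRNAs can be counted in it.

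The members carried a small share of the counts, and 1 gene carried most of that share. The gene tables held 13318778, 19162031 and 19147906 expected counts (reads assigned to genes by a model, so not always whole) in replicates 1, 2 and 3. The 89 members took 2.33%, 1.67% and 1.85% of them, and Xist alone took 67.0%, 61.9% and 66.9% of the members' counts. Together the members made up 1.48% of the lincRNA genes and held 94.0% of all lincRNA counts. A further 4459 lincRNA genes had a count of 0 in every library. The ribosomal DNA locus took 8.59%, 27.2% and 23.2% of all counts, which lowers every other share in replicates 2 and 3. Macrophage markers were all above 1 TPM (a transcript level scaled for gene length and for library depth), 10 of 10, with summed levels of 3681, 2240 and 2755 TPM. The neutrophil markers summed to 3.20, 3.79 and 2.26 TPM, and the T and NK cell markers to 0, 0.0869 and 0 TPM.

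Many members are poorly known gene models. Of the 89, 60 carry a Gm and 15 a Rik placeholder symbol, 58 have 1 annotated transcript, 53 have at most 2 exons and 9 have 1 exon. The median genomic span was 6916 nt.

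The selection used the presence of microRNA genes only by leaving out genes named as their hosts. Of the members, 6 (6.74%) still held 12 annotated microRNA genes inside their span on the same strand. Of the 6031 lincRNA genes, 69 (1.14%) held at least 1. The members were selected on counts and the other genes were not, so this difference is no finding. Dleu2 holds Mir15a and Mir16-1, A330023F24Rik holds Mir29b-2 and Mir29c, 6720427I07Rik holds Mirlet7a-1, Mirlet7d and Mirlet7f-1, 4833445I07Rik holds Mir191 and Mir425, Ftx holds Mir374b and Mir421, and Gm37233 holds Mir5103. All 12 microRNA genes were themselves listed at 0 counts in every library, so only the host transcripts were measured. The mature sequences are shown because they fall into families by the seed, bases 2 to 8, which pairs with target messenger RNAs. They are from RefSeq (GRCm38.p6), which matched all 12 genes by symbol, and are written 5′ to 3′ with the seed in capitals.
mmu-miR-15a-5p: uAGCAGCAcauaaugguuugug
mmu-miR-16-5p: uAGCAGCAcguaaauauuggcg
mmu-miR-29b-3p: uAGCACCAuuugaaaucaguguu
mmu-miR-29c-3p: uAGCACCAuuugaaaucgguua
mmu-let-7a-5p: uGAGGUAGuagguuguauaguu
mmu-let-7d-5p: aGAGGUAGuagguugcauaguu
mmu-let-7f-5p: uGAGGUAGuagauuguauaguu
mmu-miR-191-5p: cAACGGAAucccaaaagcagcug
mmu-miR-425-5p: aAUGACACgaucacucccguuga
The pair in Dleu2 shares 1 seed, as do the miR-29 pair in A330023F24Rik and the 3 let-7 members in 6720427I07Rik, whereas miR-191 and miR-425 in 4833445I07Rik differ in theirs. The hosts differed in level: Dleu2 stood at 297 ± 127 TPM (SD, n = 3), A330023F24Rik at 70.1, 36.4 and 49.4 TPM in replicates 1, 2 and 3 and Ftx at 21.3 ± 4.80 TPM.

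Levels were compared between genes only as TPM, computed over the genes that are 300 nt or longer on average. The 88 members that reach this length had a median of 24.1 TPM and ran from 5.21 to 2597 TPM. The median was 12.1 TPM over all genes tested for RNA amount below and 15.5 TPM over the protein-coding genes among them. The members' counts had been selected and the other genes' had not, so this difference is no finding. A mean of at least 10 TPM was reached by 84 members, 50 TPM by 26, 100 TPM by 17 and 500 TPM by 2. In bulk RNA, fewer cells making a transcript and less of it per cell cannot be told apart.

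The X inactivation RNAs stood far apart in level. Xist (mm10, chromosome X, 103460366 to 103483254, minus strand) had 2621, 2097 and 3071 TPM in replicates 1, 2 and 3, above every other member that has a TPM in each library. Replicate 3 was highest and replicate 2 lowest in TPM. In CPM (defined below) replicate 1 was highest, at 13994.8, 11103.5 and 12911.4 in replicates 1, 2 and 3. Ftx (chromosome X, 103560907 to 103623790, minus strand), a noncoding gene of the X inactivation centre that promotes Xist expression in mice, had 26.8, 18.2 and 18.9 TPM. Tsix, the antisense partner that represses Xist and is no member, had 0.130, 0.199 and 0.220 TPM, from 3.09, 7.43 and 7.81 counts in the 3 libraries. Of the exon bases of Xist, 11.5% lie inside opposite-strand exons, with Tsix overlapping most. The strand setting of the counting is not stated, so how reads there divide between Xist and Tsix is uncertain.

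Lncpint (chromosome 6, 31082565 to 31220488, minus strand), a lincRNA known as a target of p53 in mouse cells, followed at 888, 650 and 674 TPM. Its counts were spread over 16 annotated transcripts, and the leading one held 25.0 ± 4.37% (SD, n = 3). Dleu2 (chromosome 14, 61602839 to 61682373, minus strand), the host of the miR-15a and miR-16-1 cluster, came next at 432, 180 and 278 TPM, and its libraries spread more widely, with replicate 1 highest. Gm36161 stood at 345, 210 and 289 TPM and Gm20559 at 436, 173 and 233 TPM.

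Several uncharacterised genes were next. Gm26778 had 491, 119 and 198 TPM and Gm26522 464, 126 and 167 TPM, both with replicate 1 far above the others. Gm26857 had 241, 165 and 160 TPM and Gm42047 206, 137 and 144 TPM. In TPM, AC142100.4 and Gm38025 were the most even of the highest 12, at 160, 149 and 152 TPM and at 130, 122 and 126 TPM. Gm16907 had 154, 132 and 103 TPM. At the low end, Gm26819 had 5.50, 5.33 and 4.81 TPM, Gm43660 6.85, 4.31 and 4.81 TPM, Gm26899 16.9, 4.66 and 7.17 TPM, Gm26890 8.58, 10.62 and 10.03 TPM and Gm26538 11.3, 9.06 and 10.6 TPM.

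These levels depended on the table. Of 31 named members with a TPM, 14 differed by over 1.5 times in TPM summed from the kallisto-type transcript table, 11 lower and 3 higher. Xist had a mean of 1415 TPM there against 2597 TPM from RSEM, Gm26778 149 against 269 TPM, Gm36161 161 against 281 TPM, Gm26857 123 against 189 TPM and Gm38025 56.8 against 126 TPM. The other lower ones were Gm26786, Gm44751, Gm26899, Gdap10, Gm38399 and Gm26742, and the higher ones were Ftx (35.6 against 21.3 TPM), Gm26606 and Gm26869. Xist was the highest of the named members in both tables, followed by Lncpint at 939 TPM in the kallisto-type table.

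**Figure D1:**
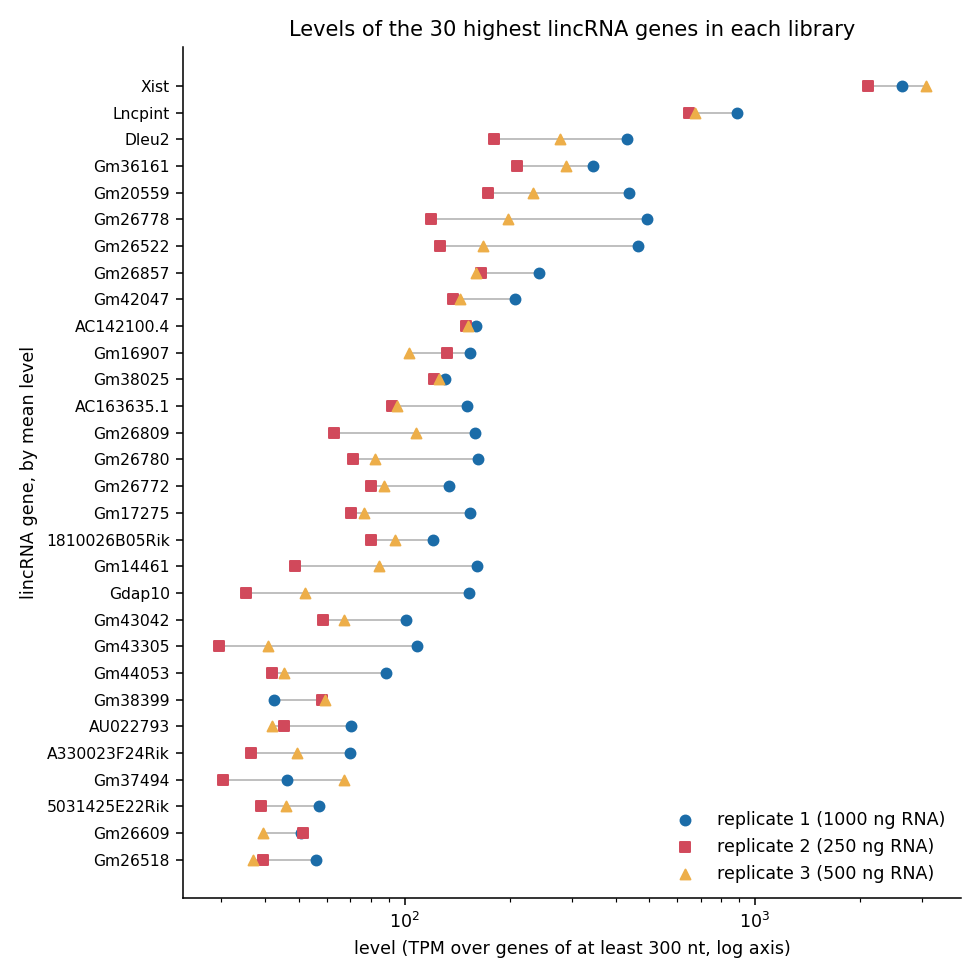
Levels of the 30 highest members (x, TPM over genes of at least 300 nt, log axis; y, genes ordered by mean level), with 1 point per library and a grey line over the range. Xist and Lncpint stand above the rest in every library, and for Gm26778, Gm26522 and Gdap10 replicate 1 lies far to the right of the other libraries.

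Of the lncRNAs listed for macrophages and immune responses, few were members. Of 13 listed names 12 were found as written, and only Dleu2 and Mirt1 of these were members. Membership also requires a transcript annotated as lincRNA, so a gene that is no member can still be abundant. F630028O10Rik, annotated as antisense, had 301, 159 and 152 TPM in replicates 1, 2 and 3. Mirt1, named for its rise after myocardial infarction, had 32.9, 17.2 and 21.2 TPM, with replicate 1 highest. Of 5 genes of the list that were tested for RNA amount, 1 rose (Dleu2) and the other 4 were not called, where 2.98% of all genes tested rose; the call of Dleu2 was lost with kallisto-type counts. Of 30 listed names of nuclear, chromatin and imprinted lncRNAs, 26 were found under the listed symbol, and 3 of these were members (Xist, Ftx and 2900097C17Rik). Among those of other annotated types, Firre, Airn, Tug1 and Kcnq1ot1 were no members, at means of 346, 64.3, 62.4 and 42.1 TPM. Symbols were matched as written, so a gene listed under a synonym counted as not found, as with Lincpint for the member Lncpint. The names not found were Lincpint, Norad, Oip5os1 and Pint. The number of members in this list is therefore a minimum, and the listed names need not all be separate genes. Of the 11 tested, edgeR called 0 and DESeq2 0, and 1 (Firre, no member) had an unadjusted p under 0.05. 2900097C17Rik had 23.1, 24.3 and 25.1 TPM (SD 1.02 TPM). It was less even in CPM (defined below), at 42.4, 58.8 and 55.6 in replicates 1, 2 and 3.

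Replicate error was described as the SD of log2 CPM (counts relative to library size, scaled with TMM factors; pseudocount 1) over the 3 libraries. The median SD of the members was 0.27, against 0.24 over all 15077 genes tested and 0.23 over the 6738 of these with a mean count of at least 200. It was below 0.2 in 32 members and above 0.5 in 19. Without replicate 1 the median fell to 0.11. The most even member was Gm26869, at 21.8, 22.9 and 22.6 CPM, and AC142100.4, 1500004A13Rik, Gm26785 and Gm26538 also had SDs below 0.08. The widest was Rmrp with an SD of 1.91, followed by Gm44751, Gm42031, Gdap10 and Gm26778.

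The labelled RNA amount is the only difference between the libraries that the labels give, and each amount is 1 library, so the amount and the replicate cannot be told apart. Slopes, as the log2 change per doubling of RNA amount, were fitted with edgeR's quasi-likelihood test over all genes, with 1 residual degree of freedom. After Benjamini-Hochberg adjustment over 15077 genes, 11 of 89 members were called at 0.05 (12.4%), where 4.38% of all genes tested were called. Of these, 10 rose with the amount and 1 fell, where 2.98% of all genes rose and 1.41% fell. Among the genes tested with a mean count of at least 200, 469 (6.96%) were called. At an unadjusted p under 0.05 there were 31 members and 3236 genes.

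The tilt extended beyond the called members. The median slope was 0.19 for the members, -0.01 for all genes tested and -0.01 for the genes with a mean count of at least 200. Slopes were above 0 in 71 members (79.8%) and in 48.4% of all genes tested. In CPM, 69 members (77.5%) were highest in replicate 1, as were 40.5% of all genes tested, and 44 members (49.4%) followed the order of the 3 amounts, as did 24.1% of all genes. The ribosomal DNA share of the counts also followed the amounts, lowest at 1000 ng; a fit without that locus called 12 members.

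**Figure D2:**
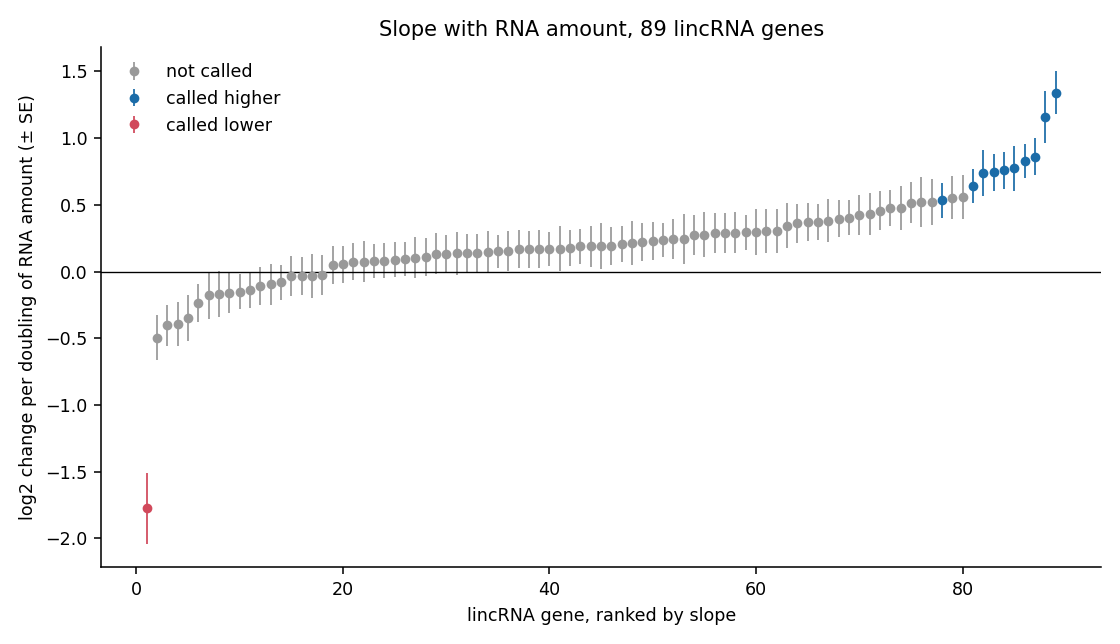
Slope of each of the 89 members (y, log2 change per doubling of RNA amount from the edgeR fit, bars ± SE) in rank order (x), with the called genes coloured. The points lie mostly above 0, and Rmrp, at -1.77, is the only member called lower.

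Gm44751 (chromosome 7, 88311478 to 88315864, plus strand) had the highest slope. It had 76.1, 12.1 and 19.9 CPM in replicates 1, 2 and 3, a slope of 1.34 (SE 0.16, edgeR adjusted p = 0.000277). Gm42031 (chromosome 8, 85125872 to 85132289, minus strand) had 31.3, 6.52 and 7.39 CPM, a slope of 1.16 (SE 0.20, edgeR adjusted p = 0.00249). In both, replicate 1 stood far above the other 2 libraries, which lay near each other.

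Gdap10 had 286, 86.8 and 117 CPM (slope 0.86, SE 0.14, edgeR adjusted p = 0.00133) and Gm26778 had 689, 220 and 334 CPM (slope 0.83, SE 0.13, edgeR adjusted p = 0.00124). 5930403N24Rik had 23.3, 7.98 and 13.0 CPM, with a slope of 0.77 (SE 0.17, edgeR adjusted p = 0.0114). The other 5 that rose were Gm26522, Gm43305, Gm26899, Dleu2 and Gm20559, with slopes of 0.76, 0.74, 0.74, 0.64 and 0.53. With kallisto-type counts 3 of these calls were lost, at slopes of 0.65 for Gm26899, 0.50 for Dleu2 and 0.47 for Gm20559 (edgeR adjusted p = 0.0526, 0.0539 and 0.0698). All 10 followed the order of the amounts, highest at 1000 ng and lowest at 250 ng.

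Much of these slopes rested on replicate 1. Without it, the slopes between 250 and 500 ng kept their sign in the 10 members that rose but ran from 0.18 in Gm42031 to 0.72 in Gm44751. They were at least 1.5 times smaller in 8 of the 11 called genes: 0.37 in Dleu2, 0.43 in Gdap10, 0.25 in Gm20559, 0.28 in Gm26522, 0.35 in Gm43305, 0.72 in Gm44751, 0.18 in Gm42031 and -0.55 in Rmrp. Without replicate 2, between 500 and 1000 ng, they ran from 0.81 in Gm20559 to 2.08 in Gm42031, and Rmrp had -3.00. With 2 libraries left these slopes had no test.

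Rmrp, the RNA subunit of the RNase MRP enzyme that processes ribosomal RNA, is annotated as a lincRNA in the release used and was the only member that fell. It had 204, 2393 and 1633 CPM and a slope of -1.77 (SE 0.26, edgeR adjusted p = 0.000951), with replicate 1 far below the others. Its gene is 281 nt long. Same-strand exons of other entries cover 96.4% of its exon bases, with another entry of the same name overlapping most. Opposite-strand exons, with Ccdc107 overlapping most, cover 44.1% of the exon bases of Rmrp. RSEM's posterior SD was 1.14% of its count. DESeq2 gave nearly the same slope, -1.77, without a call (adjusted p = 0.120), and kallisto-type counts gave -1.89 with one (edgeR adjusted p = 0.00862). Since it shares its bases with these entries, how its reads divide among them is uncertain. The other 4 of the lowest slopes, Gm26786, Gm38399, Gm26742 and Gm26890, had -0.50, -0.40, -0.39 and -0.35, and edgeR called none of them (adjusted p from 0.0974 to 0.257).

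**Figure D3:**
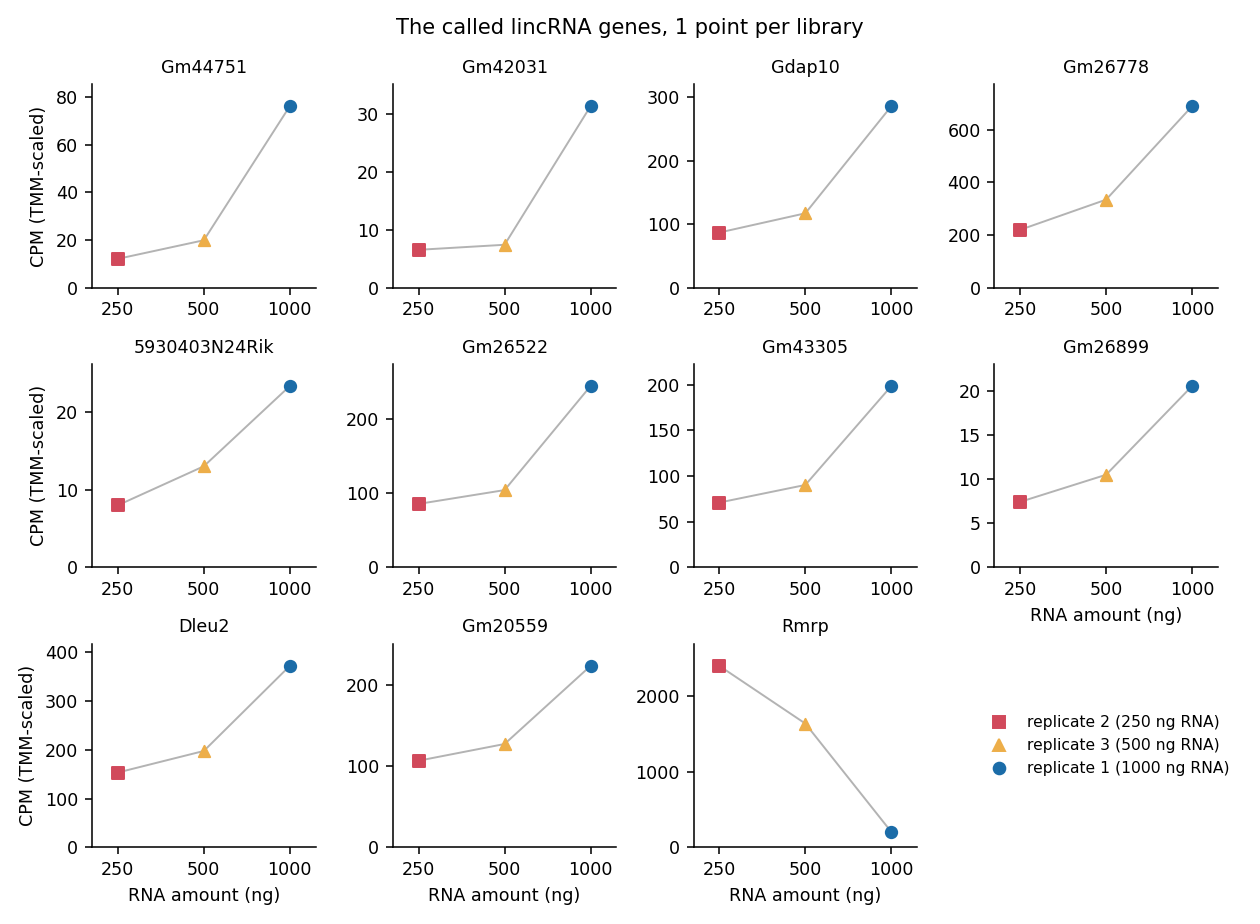
CPM with TMM factors (y, from 0) against labelled RNA amount (x, ng) for the 11 called members, 1 point per library and no error bar, since each amount is 1 library. In the 10 genes that rose, the 1000 ng library is highest and the 250 ng library lowest, and Rmrp runs the other way.

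Promoters of the genes that rose are shown as a description. These genes were selected by their slopes over the same 3 libraries, so their shared direction is no finding. RefSeq (GRCm38.p6) gave a promoter of 300 bases, 250 before to 50 after the start, for 22 of the 89 members and for 6 of the 11 called. They were searched on both strands for the kappaB consensus, AP-1 (TGANTCA), CRE (TGACGTCA), a PU.1-type ETS site (GAGGAAG), the interferon-stimulated response element and TATAAA, which did not overlap one another in the promoters printed. Of the 6, 5 are printed with that of Mirt1, 5′ to 3′ on the gene's strand, with every match in capitals.
Gm42031, chr8:85131765-85132064, minus strand: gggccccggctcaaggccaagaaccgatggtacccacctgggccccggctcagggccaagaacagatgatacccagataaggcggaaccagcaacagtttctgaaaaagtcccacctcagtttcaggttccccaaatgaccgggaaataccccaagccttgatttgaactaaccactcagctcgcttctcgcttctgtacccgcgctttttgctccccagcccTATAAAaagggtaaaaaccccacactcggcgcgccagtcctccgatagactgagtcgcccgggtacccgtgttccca
Gdap10, chr12:32823866-32824165, plus strand: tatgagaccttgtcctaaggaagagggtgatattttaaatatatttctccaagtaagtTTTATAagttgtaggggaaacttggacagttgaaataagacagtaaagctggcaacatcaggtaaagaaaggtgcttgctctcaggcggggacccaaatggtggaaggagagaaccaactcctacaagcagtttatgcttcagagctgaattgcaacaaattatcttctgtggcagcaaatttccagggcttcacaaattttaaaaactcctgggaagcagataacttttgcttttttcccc
Gm20559, chr6:3346089-3346388, minus strand: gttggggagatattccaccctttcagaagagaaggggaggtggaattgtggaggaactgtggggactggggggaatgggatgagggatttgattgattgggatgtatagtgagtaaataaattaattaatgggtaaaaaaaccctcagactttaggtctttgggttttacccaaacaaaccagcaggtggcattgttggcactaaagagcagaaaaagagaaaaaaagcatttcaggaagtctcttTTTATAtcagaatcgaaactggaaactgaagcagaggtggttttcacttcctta
Dleu2, chr14:61682324-61682623, minus strand: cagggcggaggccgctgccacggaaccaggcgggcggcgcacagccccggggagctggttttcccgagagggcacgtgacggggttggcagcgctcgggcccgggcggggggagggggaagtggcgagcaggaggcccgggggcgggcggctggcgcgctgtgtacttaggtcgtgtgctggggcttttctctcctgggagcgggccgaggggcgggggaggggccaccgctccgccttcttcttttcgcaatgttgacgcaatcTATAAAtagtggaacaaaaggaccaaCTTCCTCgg
5930403N24Rik, chr10:37139282-37139581, plus strand: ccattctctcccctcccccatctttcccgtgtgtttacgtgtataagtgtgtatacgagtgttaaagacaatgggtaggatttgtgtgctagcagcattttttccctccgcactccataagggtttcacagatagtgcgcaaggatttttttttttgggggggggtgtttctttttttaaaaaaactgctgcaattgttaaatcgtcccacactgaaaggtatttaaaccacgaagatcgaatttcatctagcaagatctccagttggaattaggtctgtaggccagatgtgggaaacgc
Mirt1, chr19:53464747-53465046, minus strand: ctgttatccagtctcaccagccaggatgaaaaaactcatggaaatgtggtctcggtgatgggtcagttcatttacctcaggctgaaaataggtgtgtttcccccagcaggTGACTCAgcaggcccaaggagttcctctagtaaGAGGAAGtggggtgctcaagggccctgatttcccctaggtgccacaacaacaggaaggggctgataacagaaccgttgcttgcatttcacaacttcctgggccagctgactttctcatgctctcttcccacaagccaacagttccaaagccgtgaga
The promoter of Gm43305 is not printed because it has the same base as that of Gm42031 at 294 of 300 positions, so the pair counts as copies of 1 sequence. Both hold TATAAA on the gene's strand at positions -27 to -22, counted from the RefSeq start without a position 0. Of the distinct 31-base words in the transcripts of Gm42031, 74.2% also occur in transcripts of 17 other genes, and of those of Gm43305 22.9% occur in 19, so the counts of both are uncertain. A TATAAA that begins 40 to 20 bases before the start occurred in these 2 of 22 member promoters (9.09%) and in 655 of the 32851 promoters of the table (1.99%), a window chosen after the matches were seen. The RefSeq starts of Gm42031 and Gdap10 lie 475 and 2244 nt inside the gene models that were counted. Mirt1 holds AP-1 at -140 to -134 and the ETS site at -107 to -101, and Dleu2 the ETS site at 42 to 48 on the other strand. 5930403N24Rik held no match.

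Over the 22 member promoters, the near-identical pair included, TATAAA was present in 7 (31.8%), where 13.6% of all promoters held it, and the ETS site in 5 (22.7%), where 13.6% did. AP-1 was in 2 (9.09%, against 7.81%), the kappaB consensus in 1 (4.55%, against 8.46%), the interferon-stimulated response element in 1 (4.55%, against 3.44%) and CRE in 0 (against 1.79%). The 1 kappaB match lay in Gm46430 and the 1 interferon-stimulated response element in Gm36161, both named because they were the only matches. These matches are letters in a window and do not show binding. In 16 of the 22 members the RefSeq start lay within 250 nt of the start of the counted gene model. In the other 6 it lay further away, by 624 nt in Gm46430 and by 41024 nt in A330023F24Rik.

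Most members lay in or beside protein-coding genes. A coding gene overlapped 36 members on the opposite strand (40.4%, against 7.38% of the 6031 lincRNA genes) and 13 on the same strand (14.6%, against 1.87%). A coding start within 5 kb upstream pointed away from the member in 8 (8.99%, against 7.23%), and 10 began within 5 kb past the end of a coding gene on the same strand (11.2%, against 3.22%). The members were selected on counts, so these differences are no finding. Of the 6031 lincRNA genes, 4459 had a count of 0 in every library. At least 1 of these relations held for 59 members, and 30 lay apart. Median levels were 22.5 TPM for opposite-strand overlaps and 27.7 TPM for the members lying apart.

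Slopes of members and of their coding neighbours were set side by side in the 58 pairs in which both were tested. They were fitted on the same 3 libraries, so they share every library's depth and scaling, and genes are not independent replicates. Across the pairs Pearson's r was 0.55 and Spearman's rho 0.68, and 39 pairs had the same sign. By relation, r was 0.58 over 35 opposite-strand overlaps, 0.46 over 10 same-strand overlaps, 0.77 over 7 divergent pairs and 0.86 over 6 downstream members. Overlapping pairs may also share reads. Among the same-strand overlaps, Gm20388, the neighbour of Gm42047, had a slope of -1.78 (SE 0.72) with 0 CPM in replicate 1. The coding gene had the higher TPM in 42 pairs.

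Of the 57 coding neighbours tested, 6 (10.5%) were called, all higher, where 4.38% of all genes were called. In 5 pairs the member and the coding gene both rose. Ctsc, the gene of the lysosomal protease cathepsin C, had 979, 258 and 337 CPM and a slope of 0.96 (SE 0.14, edgeR adjusted p = 0.000915), and it was paired with 2 members. Gm26522 lies within it on the opposite strand, at 244, 85.6 and 104 CPM, with none of its exon bases inside opposite-strand exons. Gm44751 begins 590 nt past the end of Ctsc on the same strand. Whether reads from unspliced Ctsc RNA, or from Ctsc RNA reaching past its end, were counted for these members was not tested.

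Gdap10 overlaps Nampt, the gene of an enzyme that makes the precursor of NAD, on the same strand without sharing exons. Whether reads from unspliced Nampt RNA were counted for Gdap10 was not tested. Nampt had 144, 63.1 and 75.6 CPM and a slope of 0.60 (SE 0.14, edgeR adjusted p = 0.0156). 5930403N24Rik begins 482 nt from the start of Marcks, which encodes a substrate of protein kinase C, and points away from it. Marcks had 197, 99.0 and 136 CPM and a slope of 0.50 (SE 0.13, edgeR adjusted p = 0.0337). Kctd12, whose protein is an auxiliary subunit of GABA-B receptors, had 1238, 559 and 893 CPM and a slope of 0.57 (SE 0.13, edgeR adjusted p = 0.0162). It is opposite Gm26778, whose exons lie wholly inside opposite-strand exons, with Kctd12 overlapping most, so their reads may be shared.

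In 2 further pairs the coding gene rose and the member was not called. Zfp36l1, an mRNA decay factor, was paired with Gm26669 (member slope 0.52, edgeR adjusted p = 0.0640). Of the exon bases of Gm26669, 92.5% lie in opposite-strand exons, with Zfp36l1 overlapping most, so reads may be shared. Zfp991 was paired with Gm26624 (member slope 0.42, edgeR adjusted p = 0.112). In 2 other pairs the member rose and the coding gene was not called: Dleu2 with Kcnrg (coding slope 0.43) and Gm26899 with Zfp106 (coding slope 0.05). Gm26857, on the opposite strand of the gene of the kinase Lyn, had 296, 265 and 236 CPM and a slope of 0.08 (SE 0.13), against 155, 124 and 124 CPM and 0.16 (SE 0.13) for Lyn. The only member beside a listed immediate early or NF-kB gene was Gm26890, which begins 3923 nt past the end of Relb, the gene of an NF-kB subunit, inside Clasrp. Gm26890 had a slope of -0.35 (SE 0.17), Relb 0.11 (SE 0.14) and Clasrp -0.38 (SE 0.15), and edgeR called none of these 3 (adjusted p 0.257, 0.704 and 0.161). Of 36 listed NF-kB genes 20 rose, and of 28 immediate early genes 3 rose, with no other gene of either list called; 2.98% of all genes tested rose.

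**Figure D4:**
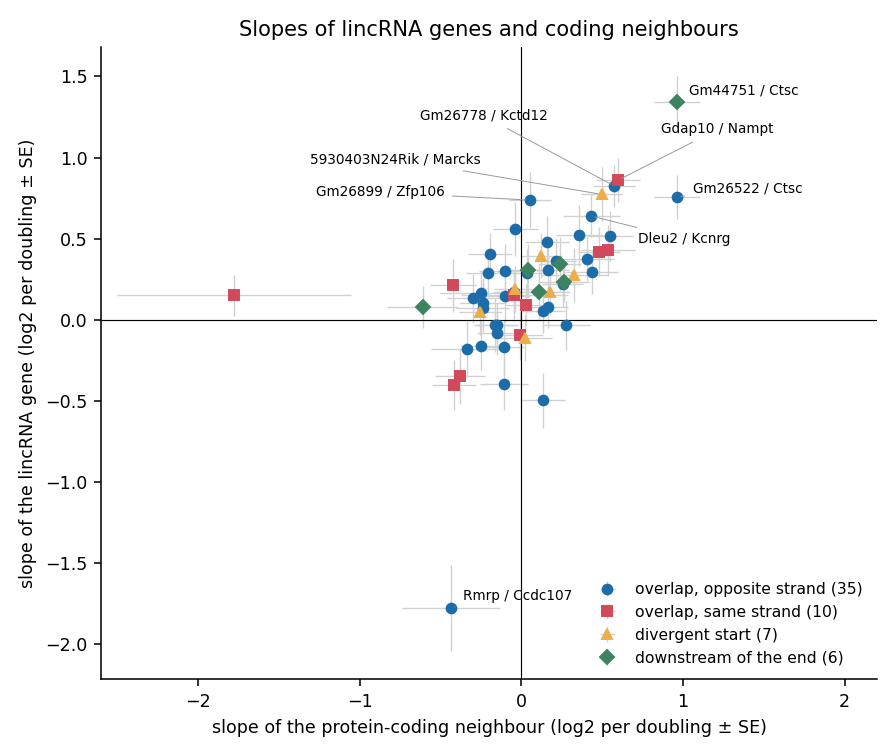
Slope of each member (y) against that of its coding neighbour (x), both as log2 change per doubling of RNA amount with bars ± SE, for 58 pairs by relation. Pairs with Ctsc, Nampt, Kctd12 and Marcks lie together at the upper right; the isolated point at the lower left is Rmrp with Ccdc107.

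How reads were shared out bears on the members inside other genes, since the strand setting of the authors' counting has no statement in the sources used here. RSEM reports a posterior SD for each count, which grows with the reads that could belong to more than 1 gene. It was above 0 in all 19 members with at least 10% of their exon bases inside opposite-strand exons, in 9 of 20 with a smaller overlap and in 12 of 50 with none. Over all 6738 genes with a mean count of at least 200 it was above 0 in 661 of 669 (98.8%), 919 of 1539 (59.7%) and 719 of 4530 (15.9%). Shares of exon bases were taken over all opposite-strand exons, and the gene named with each is the one that overlaps most. The posterior SD reached 12.2% of the count in Gm26538, and its counts of 217, 272 and 301 are uncertain. Of its exon bases 99.1% lie in opposite-strand exons, with the histone demethylase gene Kdm3b overlapping most. The posterior SD was 8.74% in Gm26899 (share 81.7%, Zfp106), 7.44% in Gm26786 (100%, Zfp90) and 6.88% in Gm26819 (81.3%, Med10). It was 5.29% in Gm26669, 4.08% in Gm26699 (99.7%, Luc7l2) and 2.09% in Gm26778. Values of at least 1% occurred in 13 members, 11 of which overlap opposite-strand exons.

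**Figure D5:**
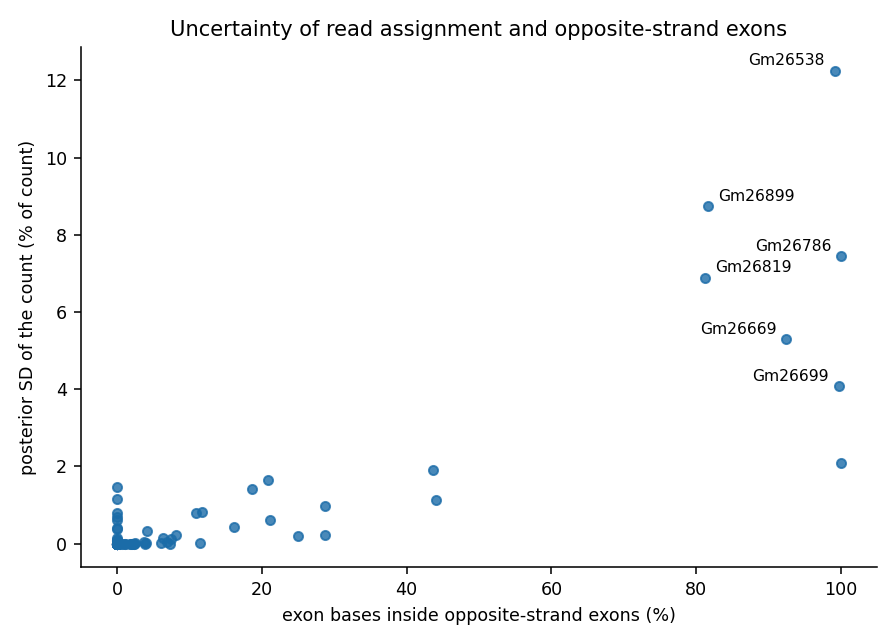
Posterior SD of the RSEM count as a percentage of the count (y) against the percentage of a member's exon bases inside opposite-strand exons (x), 1 point per member. The labelled genes, from Gm26699 at 4.08% to Gm26538 at 12.2%, have over 80% of their exon bases opposite other exons.

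A second deposited table, with estimated counts of the kallisto type, gave other counts for some members. The median ratio of its counts to the RSEM counts was 1.55 in the members and 1.52 in all genes with a mean count of at least 200. A ratio of at least 3 occurred in 11 members (12.4%, against 2.12%). Named after their values were seen, the highest were Gm26809 at 13.96, Gm43305 at 10.9 and Gm43042 at 8.72, so their counts depend on the table used. Ratios below 1 occurred in 3 members, Gm26699 at 0.372, Gm26786 at 0.656 and Gm38025 at 0.910.

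Most members with several transcripts were counted mainly on 1 of them. In the 31 members with more than 1 transcript, the leading transcript held a median of 73.6% of the gene's RSEM counts, at least 90% in 12 members and under 50% in 4. Those 4 were Lncpint, Dleu2 at 45.3 ± 4.72%, A330023F24Rik at 39.1 ± 3.79% and Mirt1 at 30.9 ± 3.54% (SD, n = 3). Xist had 98.4%, 96.3% and 95.0% on the 17946 nt transcript Xist-201. Gm43305 had 99.964%, 100% and 100% of its counts on a transcript annotated as a retained intron. The leading transcripts of A330023F24Rik and AC163635.1 (mean share 61.3%) are also annotated so. That of AC142100.4 (92.1%) is annotated as antisense and that of 5930403N24Rik (65.6%) as a processed transcript. Both tables named the same leading transcript in 25 of the 31 members.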

How the data were processed

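Members and gene lists were chosen with earlier results of these data known. For each library the authors deposited expected counts and TPM per gene and per transcript under the column names of RSEM, and estimated counts and TPM per transcript under those of kallisto, per the file headers. The deposited TPM were scaled over all entries, tRNA and spike-in entries included. Per the deposited readme files, mm10 was the assembly and M21 the annotation. No source used here states the aligner, the versions of the authors' tools, the strand setting or any filter on reads.

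Gene symbols, coordinates and transcript types came from GENCODE M21. TPM were recomputed from the expected counts and effective lengths over genes of at least 300 nt. Expected counts were rounded to whole numbers and fitted with edgeR 4.0.16 (R 4.3.3; TMM factors 1.12, 0.930 and 0.962; filterByExpr with a minimum count of 10; quasi-likelihood test) on log2 RNA amount, with Benjamini-Hochberg adjustment over all genes tested and calls at an adjusted p under 0.05. With 13318778 to 19162031 gene counts per library, a count of 0 allows up to 0.225, 0.157 and 0.157 CPM in replicates 1, 2 and 3 (3 counts, counting error only). Annotation overlaps, microRNA genes, promoter motifs and shared transcript words were searched with Python 3.11.15 and pandas 2.3.3.

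Named genes were the members of both lncRNA lists, the 12 highest and 5 lowest levels, the 5 highest and 5 lowest slopes, the 5 largest and 5 smallest SDs, the 3 genes on either side of the minimum and members beside a listed response gene; called members and hosts of microRNAs outside this rule were named after their values were seen. Alternatives were RLE factors, DESeq2 1.42.0, no count filter, kallisto-type counts, the deposited TPM, other count minimums and distances, a pseudocount of 0.1, leaving out the ribosomal DNA locus and leaving out each replicate. A fit over genes of at least 300 nt was added after seeing the data.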

Additional observations from a re-analysis of the deposited data

How the results depend on the processing

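The number of calls depended on the tool and the filter. Over all genes tested, 661 were called, against 366 with DESeq2 and 1181 with no count filter. Among members, 11 were called, against 9 to 14 over the alternatives (9 with kallisto-type counts, 10 with DESeq2, 14 with no count filter). DESeq2 did not call Rmrp, and kallisto-type counts did not call Gm26899, Dleu2 and Gm20559 (slopes of 0.65, 0.50 and 0.47). With kallisto-type counts 4 slopes that were not called changed sign: 1500004A13Rik to -0.011, Gm26786 to 0.259, Ftx to -0.012 and Gm26869 to 0.015. The cause was not tested. The median level of 24.1 TPM was 8.71 TPM with the deposited TPM, which are scaled over more entries, and 47.9 TPM at a count minimum of 400, which keeps 52 genes. The members' share of counts, 1.95% on average, was 2.42% without the ribosomal DNA locus genes. With a minimum of 400, 31 members overlapped or neighboured a coding gene. The leading transcript held 69.8% in the kallisto-type table. Leaving out each replicate gave medians of 20.8 to 28.3 TPM, shares of 1.76% to 2.09%, a median SD of 0.11 to 0.32 and a leading share of 73.2% to 74.3%. No paired analysis was possible because there is 1 group. With 3 libraries and 1 residual degree of freedom, a member that was not called is not shown to be unchanged.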
